A study of Mus musculus with 16 samples.

Results

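The transcripts of 10 mouse genes were followed under fed and fasting conditions in 8 tissues. The 10 genes encode 6 nuclear receptors (Ppara, Ppard, Pparg, Rxra, Rxrg and Esrra), 3 coactivators (Ppargc1a, Ppargc1b and Lpin1) and 1 membrane-bound transcription factor of the bZIP family (Creb3l3). They were picked by symbol, each matching 1 row of the 55385 genes in the count table by its gene identifier. All had counts in each of the 16 libraries except Creb3l3, which had 0 counts in fed heart.

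Peroxisome proliferator-activated receptors (PPARs) are nuclear receptors that bind fatty acids and related lipids, pair with a retinoid X receptor (RXR) and switch on genes of lipid uptake, oxidation and storage. PPAR-alpha is best known from the fasting liver, where it drives fatty acid oxidation and ketone body synthesis, PPAR-gamma from the adipocyte, and PPAR-delta from many tissues including muscle. The PGC-1 proteins carry no DNA-binding domain and act by docking on receptors such as the PPARs and the estrogen-related receptor ERR-alpha (Esrra), which turn on mitochondrial genes. Lipin-1 dephosphorylates phosphatidic acid on the way to triglyceride and also works in the nucleus with PGC-1alpha and PPAR-alpha. CREB3L3, also called CREBH, is released from the endoplasmic reticulum membrane and acts with PPAR-alpha in hepatocytes.

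The samples were tissue of male C57BL/6 mice, bought at 12 weeks of age and kept for at least 10 days before use. Mice had free access to chow (fed) or went without food for 24 h (fasting), and equal amounts of tissue from the 3 animals of each condition went into 1 pool per tissue before RNA was extracted. Muscle, heart, liver, kidney, white adipose, brown adipose, spleen and lung each gave 1 fed and 1 fasting library, so no value within a tissue has a replicate error, and the 8 tissues come from the same 2 pools of mice. The deposited values were counts per gene, with library totals from 14245178 to 36069968. A level is given in CPM, the count divided by the library total and scaled as usual, and 3 counts, taken as the floor, came to 0.0832 to 0.211 CPM. In pooled tissue, fewer cells of a type and less RNA per cell cannot be told apart. The labelled tissues carried their markers: the summed hepatocyte list stood at 109613 and 110141 CPM in liver, the cardiomyocyte list at 44883 and 44380 CPM in heart and the adipocyte list at 30624 and 26729 CPM in white adipose (fed and fasting, in that order). The white adipose libraries differed from each other in markers that belong to other organs. Lrp2, a kidney tubule receptor, was at 34.9 CPM in the fed and 710 CPM in the fasting white adipose library, where the summed kidney tubule list went from 69.9 to 750.5 CPM with 2 of its 8 genes called higher. Without Lrp2 the list was at 34.9 and 40.9 CPM. In the other direction, 4 of 6 epididymis markers fell, with Lcn5 going from 111 to 13 counts. The part of these shifts in the white adipose values below was not tested, and the main counts over tissues are also given without it.

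Promoter windows of RefSeq on GRCm38.p6, running from 250 bases before to 50 bases after a transcription start, were matched by symbol for 9 of the 10 genes, 14 windows in all. No window was used for Ppargc1b. The windows were searched on both strands for the letters AGGTCA, the hexamer that nuclear receptors recognise, and TGACG, the core of the cyclic AMP response element, and for AGGTCANAGGTCA, TCAAGGTCA, TGACGTCA, CACGTG and GTAAACA (the direct repeat of PPAR and RXR, the ERR element, the full cyclic AMP response element, the E-box and the FoxO motif). TCAAGGTCA and AGGTCANAGGTCA contain AGGTCA, and TGACGTCA contains TGACG. Windows of 4 genes whose transcripts rose in the fasting liver, and the second window of Rxrg, whose transcript fell most widely, are shown because they hold a match, in the direction of the gene and with the match in capitals.

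Ppara: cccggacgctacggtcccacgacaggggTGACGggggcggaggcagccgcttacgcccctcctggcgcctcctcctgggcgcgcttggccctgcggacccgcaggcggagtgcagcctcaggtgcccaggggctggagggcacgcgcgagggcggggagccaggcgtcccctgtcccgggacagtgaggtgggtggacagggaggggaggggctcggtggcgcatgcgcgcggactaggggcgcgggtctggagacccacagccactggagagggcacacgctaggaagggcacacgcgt

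Ppargc1a: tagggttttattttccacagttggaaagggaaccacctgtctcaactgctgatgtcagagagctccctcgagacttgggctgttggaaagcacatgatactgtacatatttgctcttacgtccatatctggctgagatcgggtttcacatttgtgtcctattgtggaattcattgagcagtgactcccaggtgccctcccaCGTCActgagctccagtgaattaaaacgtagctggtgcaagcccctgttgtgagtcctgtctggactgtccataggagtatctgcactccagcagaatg

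Lpin1: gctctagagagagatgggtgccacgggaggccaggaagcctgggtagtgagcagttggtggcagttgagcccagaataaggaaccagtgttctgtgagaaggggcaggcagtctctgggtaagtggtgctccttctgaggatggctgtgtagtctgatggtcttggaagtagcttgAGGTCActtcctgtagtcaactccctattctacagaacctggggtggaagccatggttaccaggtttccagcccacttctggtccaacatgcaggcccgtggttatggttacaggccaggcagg

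Creb3l3: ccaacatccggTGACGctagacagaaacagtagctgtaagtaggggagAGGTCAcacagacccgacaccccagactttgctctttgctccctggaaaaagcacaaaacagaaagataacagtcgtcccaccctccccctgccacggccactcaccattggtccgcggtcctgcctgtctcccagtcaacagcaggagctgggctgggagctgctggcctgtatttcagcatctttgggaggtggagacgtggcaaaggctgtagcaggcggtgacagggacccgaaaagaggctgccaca

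Rxrg: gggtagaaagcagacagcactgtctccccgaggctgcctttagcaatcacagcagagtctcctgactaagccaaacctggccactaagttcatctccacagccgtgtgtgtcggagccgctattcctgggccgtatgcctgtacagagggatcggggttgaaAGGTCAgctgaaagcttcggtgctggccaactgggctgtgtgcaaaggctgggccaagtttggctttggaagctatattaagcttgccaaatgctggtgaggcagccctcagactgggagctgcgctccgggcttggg

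These windows lie at chr15:85735526-85735825 (plus strand) for Ppara, chr5:51567676-51567975 (minus strand) for Ppargc1a, chr12:16610917-16611216 (minus strand) for Lpin1, chr10:81092542-81092841 (minus strand) for Creb3l3 and chr1:167618015-167618314 (plus strand) for Rxrg. With the start counted as base 0, AGGTCA covered bases -74 to -69 of Lpin1, -202 to -197 of Creb3l3 and -88 to -83 of Rxrg. TGACG covered bases -222 to -218 of Ppara and -239 to -235 of Creb3l3, and its complement CGTCA covered bases -49 to -45 of Ppargc1a. AGGTCA was present in 6 of the 14 windows, those of Pparg (2 windows), Rxra, Rxrg, Lpin1 and Creb3l3, against 16.3% of the 32851 windows of the genome. TGACG was present in 4 of 14, against 20.8% of all windows. The 5 longer motifs were in none of the 14 windows, and the shares over all windows were 0.0396% for the direct repeat, 0.423% for the ERR element, 1.79% for the full cyclic AMP response element, 7.15% for the E-box and 3.65% for the FoxO motif. A match is a description of the letters, and no match says only that these letters are not in these windows.

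The 10 genes differed widely in where they were expressed. In a fit of all 16 libraries (edgeR quasi-likelihood F test of the tissue term), 9 of the 10 differed among tissues at an adjusted p-value under 0.05, where 93.7% of the 23580 genes tested did. Ppard was the exception, with an adjusted p of 0.0893. Creb3l3 was the most confined, with a mean of 374 CPM in liver and 1.50 CPM in the next tissue, kidney, a ratio of 249. Ppargc1b was 4.93 times higher in brown adipose than in heart, the next tissue. The other 8 genes were between 1.01 and 1.81 times higher in their first than in their second tissue. Which tissue came first depended on the scaling. With DESeq2 size factors, 6 of 10 genes kept their highest tissue, while Ppara moved to liver and Ppard, Rxrg and Lpin1 moved to muscle.

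**Figure D1:**
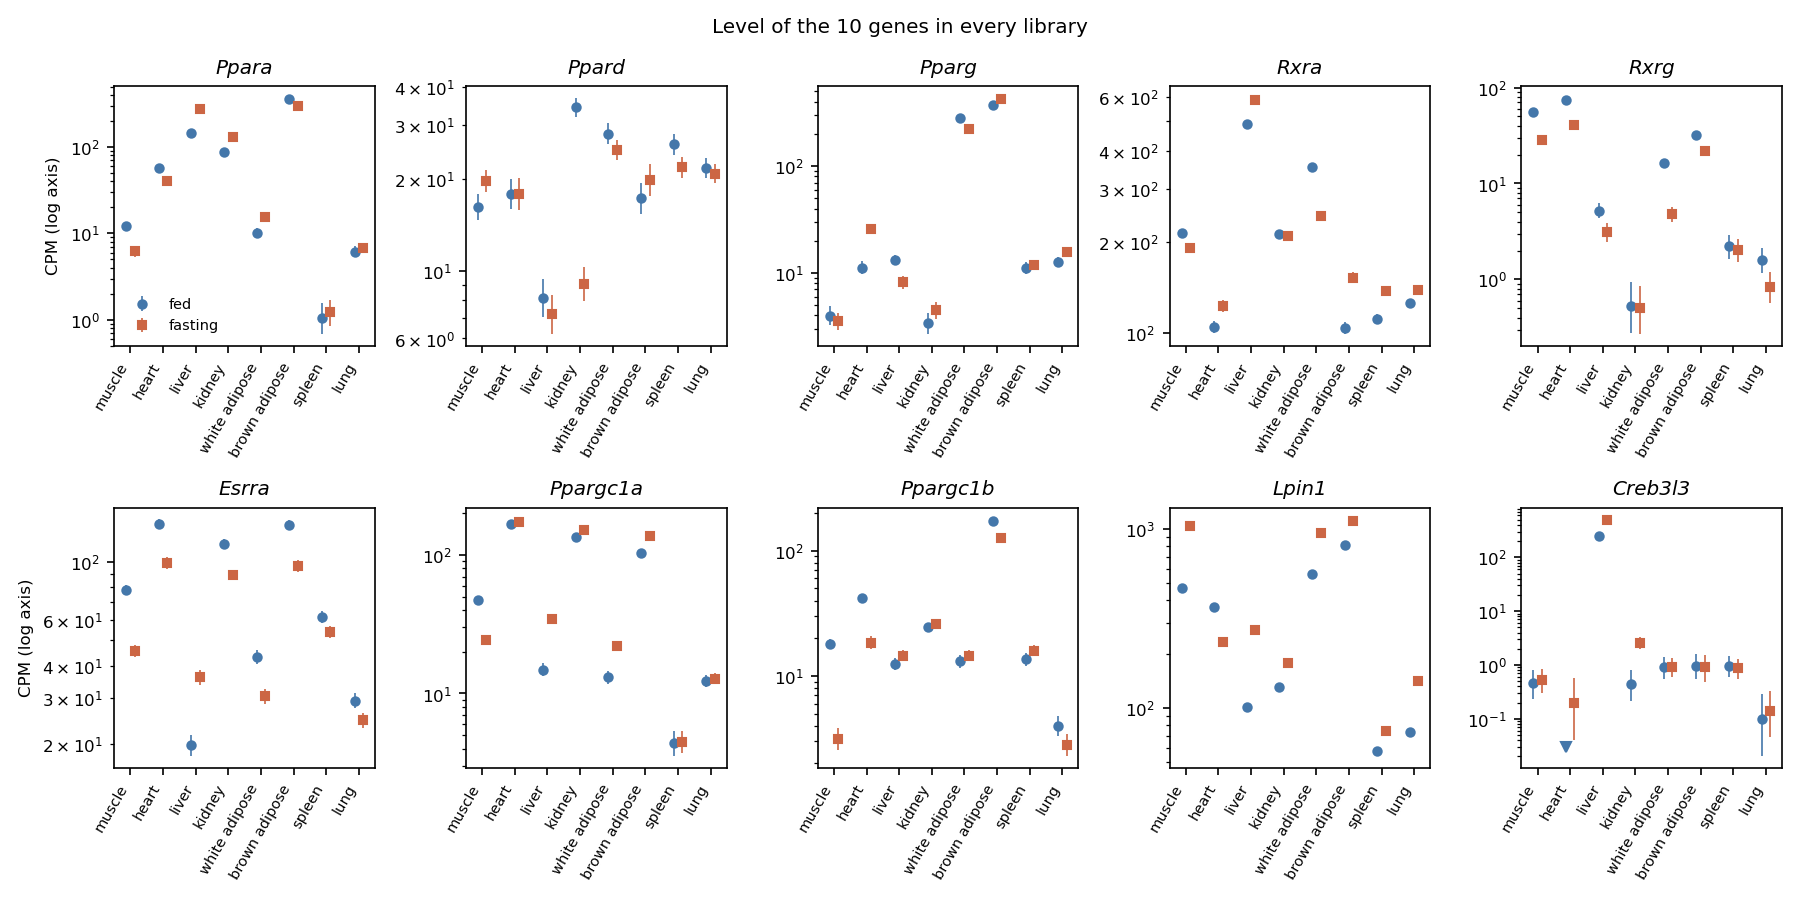
Level of each of the 10 genes in the 16 libraries, with tissue on the x axis and CPM on a log y axis. Circles are fed and squares are fasting libraries, 1 library a point, bars are 95% exact counting intervals, and the triangle marks Creb3l3 at 0 counts in fed heart. Rxrg is lower in the fasting than in the fed library of all 8 tissues, and Creb3l3 is near 1 CPM or lower outside liver and fasting kidney.

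Fasting was then compared with fed within each tissue. A gene is said to have risen or fallen in a tissue where its log2 fold change of CPM + 0.01 was above 0.5 in size and Fisher's exact test of its counts gave an unadjusted p under 0.01. This compares 2 libraries and not the 2 conditions. Of the 80 pairs of gene and tissue, 14 rose and 17 fell. Over all genes, 4.99% of the 220804 pairs with a count rose and 6.15% fell, and among pairs at 1 CPM or more, as 73 of the 80 were, 7.93% rose and 9.94% fell. Liver had the most rises, 5 of 10 genes (Ppara, Esrra, Ppargc1a, Lpin1 and Creb3l3), with Pparg and Rxrg falling, against 7.34% and 15.8% of all genes at 1 CPM. Muscle had the most falls, 5 of 10 (Ppara, Rxrg, Esrra, Ppargc1a and Ppargc1b), with Lpin1 rising, against 16.4% and 7.8%. Between the same muscle libraries 5 of 10 adipocyte markers fell (summed level 593 and 552 CPM, Adipoq at 16.1 and 6.79 CPM) and 2 of 7 endothelial markers fell (316 and 249 CPM, Kdr at 63.3 and 28.1 CPM). Their part in the muscle values was not tested.

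In heart, Pparg rose and Ppara, Rxrg, Ppargc1b and Lpin1 fell, against 7.01% and 9.65% of all genes at 1 CPM. The atrial myosin light chains Myl4 (18.5 and 2.10 CPM) and Myl7 (14.5 and 0.918 CPM) fell between the same heart libraries, while Myh6 was at 30767 and 31097 CPM. Of the endothelial markers, Kdr (316 and 170 CPM) and Egfl7 (151 and 94.4 CPM) fell there and the others did not pass the rule. The part of these shifts in the heart values was not tested. In kidney, Ppara and Creb3l3 rose and Ppard fell, against 4.48% and 6.23%. In white adipose, Ppara, Ppargc1a and Lpin1 rose and Rxra and Rxrg fell, against 19.8% and 9.23%, the highest share of rises of any tissue. In brown adipose, Rxra rose and Rxrg and Esrra fell, against 8.68% and 12.2%. Lung had 1 rise (Lpin1) and 1 fall (Rxrg), against 4.23% and 10.1%. In spleen none of the 10 passed the rule, against 3.62% and 2.33%. Without the white adipose libraries 11 pairs rose and 15 fell, of 70.

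**Figure D2:**
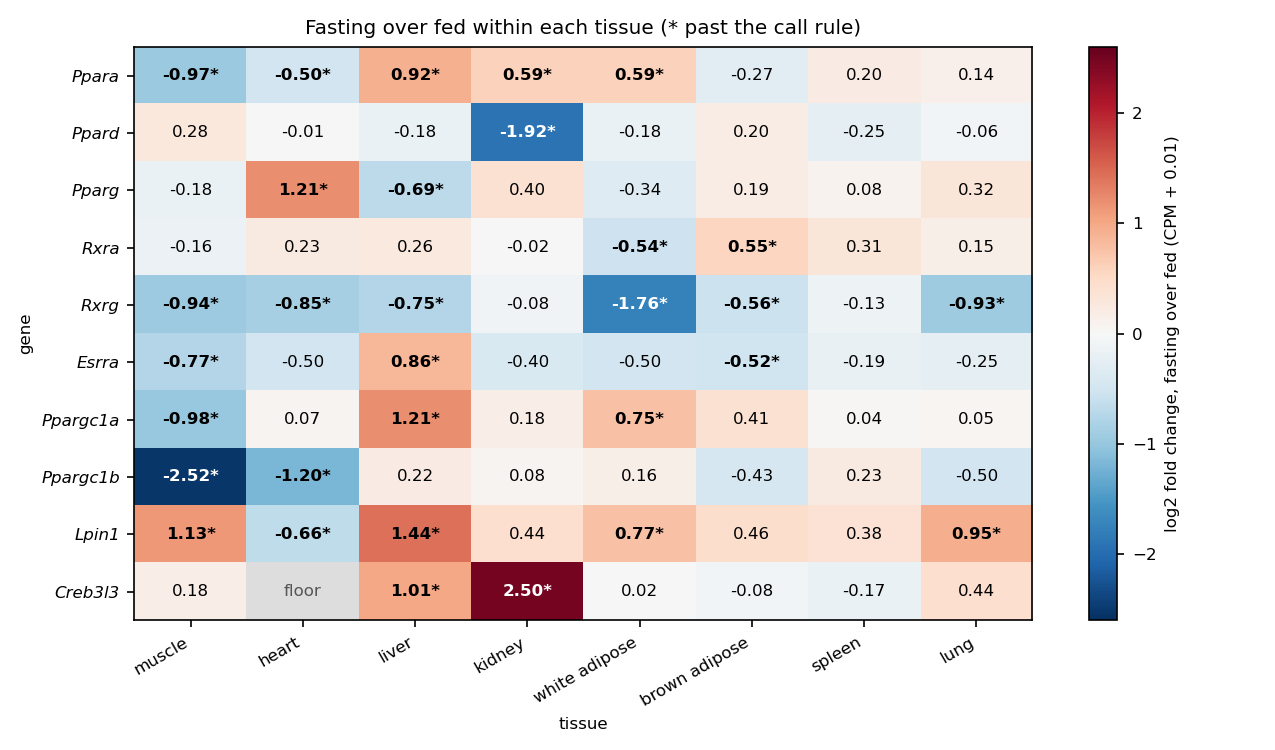
Log2 fold change of CPM + 0.01, fasting over fed, for the 10 genes (rows) in 8 tissues (columns), red for higher and blue for lower in fasting, 1 library per condition. An asterisk marks pairs past the rule, and the grey cell is Creb3l3 in heart, where both libraries were at or under 3 counts. The lowest value is -2.52 for Ppargc1b in muscle and the highest is 2.50 for Creb3l3 in kidney.

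Ppara (ENSMUSG00000022383.13, chr15:85734983-85802819) encodes PPAR-alpha. Its levels in the fed and fasting library were 363 and 301 CPM in brown adipose, 145 and 275 CPM in liver, 86.9 and 131 CPM in kidney and 57.9 and 40.8 CPM in heart. They were 10.2 and 15.3 CPM in white adipose, 12.1 and 6.17 CPM in muscle, 6.12 and 6.74 CPM in lung and 1.06 and 1.22 CPM in spleen. The first 4 tissues did not overlap with one another, while white adipose overlapped with muscle and muscle with lung. Ppara rose in liver, with a log2 fold change of 0.92 and a 95% counting interval of 0.86 to 0.98, in kidney by 0.59 (0.51 to 0.67) and in white adipose by 0.59 (0.36 to 0.83). It fell in muscle, with -0.97 (-1.24 to -0.71), and in heart, with -0.50 (-0.65 to -0.36). The fall in heart lay just past the rule's limit. Both it and the rise in white adipose were lost with TMM factors, at -0.45 and 0.49, and with DESeq2 size factors, at -0.45 and 0.48.

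Ppard (ENSMUSG00000002250.16, chr17:28232700-28301474) encodes PPAR-delta. It was the flattest of the 10 across tissues, at 28.1 and 24.8 CPM in fed and fasting white adipose, 25.9 and 21.8 CPM in spleen, 21.7 and 20.8 CPM in lung and 17.3 and 19.9 CPM in brown adipose. Muscle was at 16.2 and 19.7 CPM, heart at 17.9 and 17.8 CPM and liver at 8.16 and 7.21 CPM. Kidney was the exception, with the highest fed level of all tissues, 34.3 CPM, and 9.08 CPM in fasting. Only there did Ppard pass the rule, with a log2 fold change of -1.92 (-2.14 to -1.70). In the other 7 tissues the values lay between -0.25 and 0.28.

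Pparg (ENSMUSG00000000440.12, chr6:115360951-115490399) encodes PPAR-gamma, the main regulator of adipocyte formation. It was at 372 and 424 CPM in fed and fasting brown adipose and at 280.0 and 221 CPM in white adipose. No other library was above 25.9 CPM. Neither adipose change passed the rule, at 0.19 (0.14 to 0.24) in brown and -0.34 (-0.39 to -0.29) in white adipose. Pparg rose in heart, from 11.2 to 25.9 CPM, a log2 fold change of 1.21 (0.96 to 1.46), and fell in liver, from 13.2 to 8.21 CPM, a log2 fold change of -0.69 (-0.95 to -0.43). Levels were 12.6 and 15.8 CPM in lung, 11.1 and 11.8 CPM in spleen, 3.39 and 4.46 CPM in kidney and 3.99 and 3.52 CPM in muscle. The adipocyte markers did not all go the same way in heart. Adipoq was at 0.871 and 0.262 CPM, Plin1 at 0.581 and 0.131 CPM, and Lep at 0 counts in both. Of the 10 adipocyte markers, 3 rose in heart (Fabp4, Lipe and Aqp7), and Cfd fell, with Fabp4 at 370 and 831 CPM. The summed list was 4469 CPM in fed and 6137 CPM in fasting heart, most of it Lpl at 4017 and 5128 CPM, and its part in the Pparg value was not tested.

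Per kilobase of gene, which allows levels of different genes to be compared, the leading PPAR differed by tissue. In CPM per kilobase, Ppara was at 37.8 and Pparg at 4.48 in fed liver, at 71.7 and 2.78 in fasting liver, and at 22.6 and 1.15 in fed kidney. In fed white adipose Pparg was at 94.8 and Ppara at 2.65. Brown adipose held both, with Ppara at 94.7 and Pparg at 126 in the fed library. In fed kidney Ppara stood 4.96 times above Ppard, and in fasting kidney 28.2 times. In heart the ratio of Ppara to Pparg was 3.97 under fed and 1.21 under fasting conditions. In muscle, Ppara was above Ppard in the fed library, with a ratio of 1.47, and below it in the fasting library, with 0.614.

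The RXRs are the obligate partners of the PPARs. Rxra (ENSMUSG00000015846.15, chr2:27676440-27762957) was high in every tissue, from 104 CPM in fed brown adipose to 588 CPM in fasting liver. Its fed and fasting levels were 492 and 588 CPM in liver, 353 and 243 CPM in white adipose, 212 and 209 CPM in kidney and 214 and 192 CPM in muscle. They were 125 and 139 CPM in lung, 104 and 152 CPM in brown adipose, 111 and 138 CPM in spleen and 105 and 122 CPM in heart. Rxra fell in white adipose, with a log2 fold change of -0.54 (-0.58 to -0.49), and rose in brown adipose, with 0.55 (0.46 to 0.64). Both values lie close to the limit of 0.5. Liver and white adipose stood apart from each other and from the rest, while kidney overlapped with muscle, and the last 4 tissues overlapped except for lung and heart, which did not.

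Rxrg (ENSMUSG00000015843.10, chr1:167598384-167639623) encodes the RXR of striated muscle and some other tissues. It was at 74.0 CPM in fed and 41.0 CPM in fasting heart, 55.2 and 28.7 CPM in muscle, 32.4 and 21.9 CPM in brown adipose and 16.2 and 4.78 CPM in white adipose. Liver was at 5.21 and 3.08 CPM, spleen at 2.21 and 2.01 CPM, lung at 1.60 and 0.832 CPM and kidney at 0.535 and 0.504 CPM. The fasting library was the lower of the 2 in all 8 tissues. In spleen, at -0.13 (-0.71 to 0.45), and kidney, at -0.08 (-1.33 to 1.18), the counting interval of the log2 fold change included 0. Rxrg fell in 6 of them, with log2 fold changes of -1.76 (-2.06 to -1.47) in white adipose, -0.94 (-1.07 to -0.82) in muscle, -0.93 (-1.65 to -0.25) in lung, -0.85 (-0.99 to -0.71) in heart, -0.75 (-1.19 to -0.33) in liver and -0.56 (-0.77 to -0.36) in brown adipose. Of the 37084 genes with a count, 79, or 0.213%, fell in 6 or more tissues. Without white adipose Rxrg fell in 5 of 7 tissues, and 0.322% of genes fell in 5 or more. In lung the fall rests on 48 and 30 counts, and the call was lost with TMM factors, at -0.85, and with an adjusted Fisher p. Of the 7 cardiomyocyte markers, 6 fell in lung as well, and their summed level was 1189 CPM in the fed and 610.3 CPM in the fasting library, with Nppa at 198 and 27.4 CPM. The part of this in the lung value was not tested. In brown adipose all 10 muscle fibre markers fell as well, with a summed level of 2691 CPM in the fed and 1236 CPM in the fasting library, which is 1.72% and 0.804% of the level in muscle. Heart and muscle, and muscle and brown adipose, overlapped in level.

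Per kilobase, Rxra exceeded Rxrg in 7 of 8 fed and in all 8 fasting libraries, and the ratio of Rxra to Rxrg was higher in fasting in all 8 tissues. In heart, Rxrg was above Rxra in the fed library (32.2 and 16.6 CPM per kilobase) and below it in the fasting library (17.8 and 19.4). In white adipose the ratio of Rxra to Rxrg went from 7.94 to 18.5 although both genes fell. The third receptor of the family, Rxrb, was below Rxra in all 16 libraries and stayed between -0.06 and 0.35 on the log2 scale in the 8 tissues.

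Esrra (ENSMUSG00000024955.15, chr19:6910977-6921840) encodes ERR-alpha, a receptor without a known natural ligand that works with the PGC-1 proteins. Fed and fasting levels were 139.7 and 99.0 CPM in heart, 139 and 96.6 CPM in brown adipose, 117 and 89.0 CPM in kidney and 77.9 and 45.7 CPM in muscle. They were 61.6 and 54.0 CPM in spleen, 43.2 and 30.6 CPM in white adipose, 19.9 and 36.1 CPM in liver and 29.4 and 24.7 CPM in lung. Heart, brown adipose and kidney, the highest tissues, overlapped in level and were lower in fasting, and liver, the lowest fed tissue, was the only one of 8 that was higher. Esrra rose in liver, with a log2 fold change of 0.86 (0.70 to 1.03). It fell in muscle, with -0.77 (-0.87 to -0.67), and in brown adipose, with -0.52 (-0.62 to -0.42). Heart and white adipose, both at -0.50, did not reach the limit, and the call in brown adipose was lost with TMM factors, at -0.497. White adipose was called lower with TMM factors (-0.61), DESeq2 size factors (-0.61) and library totals without the 10 highest genes (-0.51), and heart with the last of these (-0.53). Of the 4414 exon bases of Esrra, 73, or 1.65%, overlap with Trmt112 on the opposite strand, and whether the counting used the strand is not given in the sources used here.

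Per kilobase, Esrra was above its relatives Esrrg and Esrrb in all 16 libraries. Kidney was the closest, with Esrra at 26.6 and Esrrg at 17.1 CPM per kilobase in the fed library (a ratio of 1.55) and 20.2 and 14.3 in the fasting one (1.42). In white adipose Esrrg was at 0.945 CPM in the fed and 13.1 CPM in the fasting library, the same pair of libraries in which Lrp2 differed. Esrrg fell in muscle, from 24.3 to 10.8 CPM, as Esrra did.

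Ppargc1a (ENSMUSG00000029167.13, chr5:51454250-51567726) encodes PGC-1alpha, which is known to be induced by fasting in liver and by exercise in muscle. Fed and fasting levels were 166 and 174 CPM in heart, 135 and 153 CPM in kidney, 104 and 137 CPM in brown adipose and 47.6 and 24.1 CPM in muscle. They were 14.8 and 34.3 CPM in liver, 13.1 and 22.1 CPM in white adipose, 12.3 and 12.8 CPM in lung and 4.37 and 4.49 CPM in spleen. The fasting library was the higher of the 2 in 7 tissues, and muscle alone went the other way. In heart (-0.009 to 0.14), spleen (-0.35 to 0.43) and lung (-0.15 to 0.25) the counting interval of the log2 fold change included 0. Heart stood above kidney and brown adipose, which overlapped. Ppargc1a rose in liver, with a log2 fold change of 1.21 (1.02 to 1.39), and in white adipose, with 0.75 (0.55 to 0.96), and it fell in muscle, with -0.98 (-1.11 to -0.84).

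Ppargc1b (ENSMUSG00000033871.14, chr18:61298136-61400431) encodes PGC-1beta, a close relative that also supports mitochondrial genes. It was at 172 CPM in fed and 127 CPM in fasting brown adipose, 42.2 and 18.4 CPM in heart, 24.5 and 25.8 CPM in kidney and 18.1 and 3.14 CPM in muscle. Spleen was at 13.6 and 15.95 CPM, white adipose at 13.1 and 14.5 CPM, liver at 12.5 and 14.5 CPM and lung at 3.99 and 2.83 CPM. The fall in muscle, at -2.52 (-2.86 to -2.21), was the largest of the 80 pairs, and the fall in heart was -1.20 (-1.40 to -0.997). Brown adipose stood apart from all other tissues. No further tissue passed the rule, and liver, where Ppargc1a rose, was at 0.22 (-0.004 to 0.45). In the muscle libraries the summed muscle fibre markers were 156161 and 153662 CPM.

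Per kilobase, Ppargc1a was above Ppargc1b in 4 of 8 fed and 5 of 8 fasting libraries, and the ratio of Ppargc1a to Ppargc1b was higher in fasting in 7 of 8 tissues. In liver the order turned, with Ppargc1a at 2.25 and Ppargc1b at 3.12 CPM per kilobase in the fed and 5.20 and 3.64 in the fasting library. In muscle the pair was at 7.21 and 4.53 in the fed and 3.66 and 0.786 in the fasting library, a ratio of 1.59 and then 4.66. In brown adipose Ppargc1b led in both, at 43.0 against 15.7 in the fed and 31.9 against 20.8 in the fasting library.

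**Figure D3:**
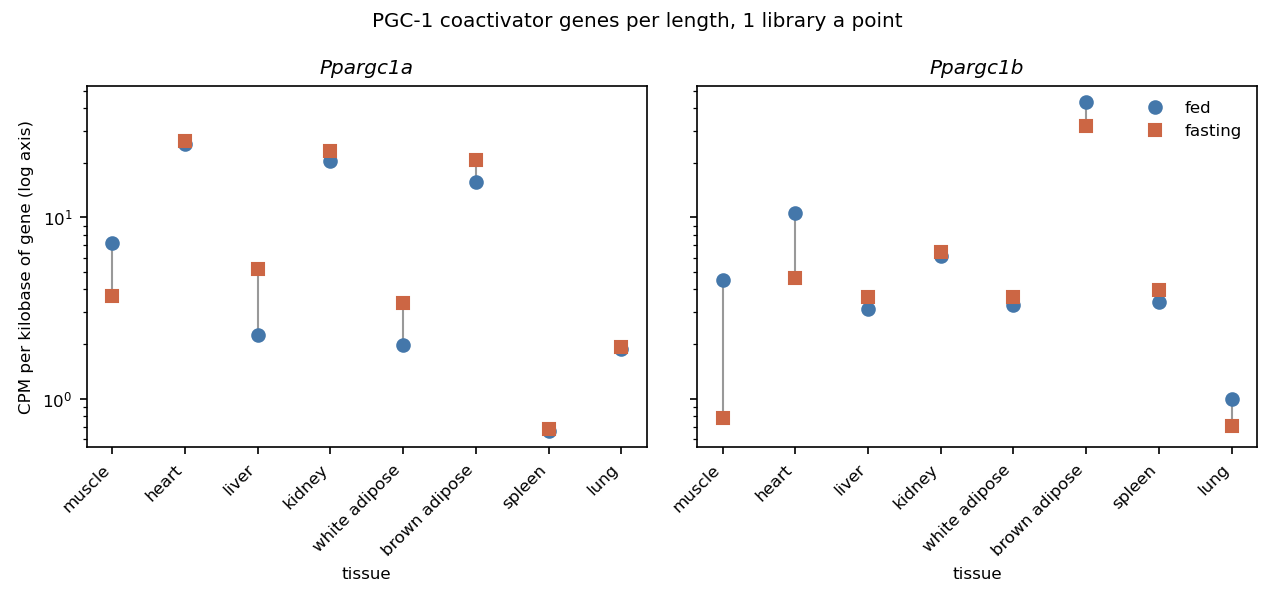
Ppargc1a (left) and Ppargc1b (right) in CPM per kilobase of gene on a log axis, by tissue, with circles for fed and squares for fasting libraries and a line joining the 2 libraries of a tissue. Ppargc1b lies lower in fasting in muscle, heart, brown adipose and lung, past the rule in the first 2, while Ppargc1a lies lower in muscle and is highest in heart, at 25.3 fed and 26.5 fasting.

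Lpin1 (ENSMUSG00000020593.16, chr12:16535669-16646966) encodes lipin-1. It was the highest of the 10 genes in CPM in several tissues, at 809 CPM in fed and 1112 CPM in fasting brown adipose, 558 and 950.1 CPM in white adipose, 470.4 and 1033 CPM in muscle and 368 and 234 CPM in heart. Liver was at 101 and 274 CPM, kidney at 131 and 178 CPM, lung at 73.4 and 142 CPM and spleen at 57.3 and 74.4 CPM. The fasting library was the higher in 7 of 8 tissues, with heart the exception. Brown adipose, white adipose and muscle overlapped in level. Lpin1 rose in liver, with a log2 fold change of 1.44 (1.37 to 1.51), in muscle, with 1.13 (1.10 to 1.17), in lung, with 0.95 (0.87 to 1.02), and in white adipose, with 0.77 (0.74 to 0.80). It fell in heart, with -0.66 (-0.71 to -0.60). Kidney, at 0.44, was called higher with TMM factors (0.52) and with DESeq2 size factors (0.501). In lung 6 of 10 adipocyte markers rose as well, from a summed 331 CPM to 609.95 CPM, and their part in the lung value was not tested. Of all genes with a count, 1.09% rose in 4 or more tissues. Without white adipose Lpin1 rose in 3 of 7, and 1.57% of genes rose in 3 or more. In muscle Lpin1 rose while both PGC-1 genes fell, and in liver it rose together with Ppargc1a.

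The other lipins divided the tissues. Per kilobase, Lpin1 was above Lpin2 in 5 of 8 tissues in both conditions, and Lpin2 led in liver (23.5 against 10.2 in the fed and 68.0 against 27.5 in the fasting library), spleen and lung. Lpin1 was above Lpin3 in all 16 libraries. Lpin2 was higher in fasting in 8 of 8 tissues, with a log2 fold change across tissues of 0.85 (SE 0.19) and an adjusted p of 0.05004 (edgeR quasi-likelihood test), just outside the threshold.

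Creb3l3 (ENSMUSG00000035041.8, chr10:81084324-81098874) was a liver transcript, at 248 CPM in the fed and 499.7 CPM in the fasting library, and it rose there by 1.01 on the log2 scale (0.96 to 1.05). In kidney it rose from 10 to 66 counts, 0.446 to 2.56 CPM, a log2 fold change of 2.50 (1.55 to 3.65). The other tissues were all under 1 CPM, with 0.963 and 0.913 CPM in brown adipose, 0.971 and 0.862 CPM in spleen, 0.902 and 0.911 CPM in white adipose, 0.457 and 0.517 CPM in muscle and 0.0998 and 0.139 CPM in lung. Heart had 0 and 3 counts, at the floor in both, and the hepatocyte markers there summed to 32.6 and 102.5 CPM, with 9 of 10 rising. The kidney libraries carried hepatocyte markers at a summed 3909 CPM in fed and 3681 CPM in fasting, a list that kidney partly expresses itself, with 1 of 10 rising and 6 falling. Among those that fell, Alb went from 723 to 195 counts and Cps1 from 54 to 0. Other genes of hepatocytes rose between the same kidney libraries, Nr1i3 from 4 to 33 counts and Fabp1 from 19 to 96 counts. The part of these shifts in the Creb3l3 value was not tested.

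To ask for a shared response, the 16 libraries were fitted together with tissue and treatment as terms, the tissues serving as the repeats. The fed libraries came from 1 group of mice and the fasting libraries from another. Standard errors and p-values here and in the lists below thus measure spread between tissues and not between animals. Rxrg was the only one of the 10 called at an adjusted p under 0.05, where 1.87% of the 23580 genes tested were, 1.03% higher and 0.84% lower. Its log2 fold change was -0.79 (SE 0.17), with an adjusted p of 0.0433 in edgeR's quasi-likelihood test. The call was narrow. When 1 tissue at a time was left out the fold change stayed between -0.88 and -0.63, but the adjusted p went from 0.0188 to 0.114 and passed the threshold only without spleen or without white adipose. Lpin1 was at 0.66 (SE 0.20, adjusted p = 0.108) and Creb3l3 at 0.79 (SE 0.30, adjusted p = 0.183) in the same edgeR fit. The other 7 genes lay between -0.41 and 0.26, with adjusted p-values of 0.425 or more. DESeq2 called 2 genes, Rxrg (adjusted p = 0.00186) and Lpin1 (adjusted p = 0.0209), where it called 11.3% of the 16234 genes to which it gave an adjusted p. An exact two-sided sign-flip permutation test on the 8 log2 fold changes gave p = 0.00781 for Rxrg, the smallest it can give with 8 tissues, and p = 0.0391 for Lpin1 (unadjusted, 10 genes tested). The value for Rxrg needs all 8 signs to agree, and the sign in kidney rests on 12 fed and 13 fasting counts. Esrra, with 7 of 8 tissues lower, was called when liver was left out, at -0.42 with an adjusted p of 0.0401 in the edgeR fit.

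**Figure D4:**
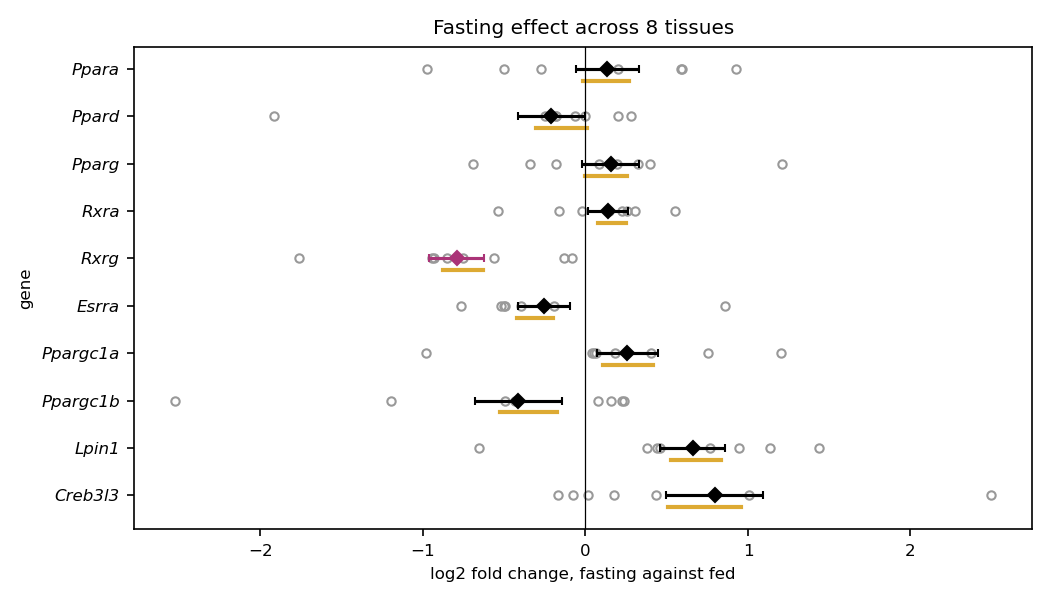
Fasting effect on the 10 genes across 8 tissues. Open circles are the log2 fold changes of single tissues, diamonds with bars the edgeR estimate and its standard error, coloured for Rxrg, the gene past the threshold, and the yellow line the range of that estimate when 1 tissue at a time is left out. That range reaches past 0 for Ppara, Ppard and Pparg and stays on 1 side of 0 for the other 7 genes.

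The response was also compared between tissue classes, as the difference in fasting effect between striated muscle (muscle and heart), adipose (white and brown) or liver with kidney and the other tissues. None of the 10 genes passed an adjusted p of 0.05 in edgeR's test for any class, where 0%, 1.63% and 0.0127% of all genes did. At an unadjusted p under 0.05 there were 3 genes for striated muscle (Ppara, Ppargc1a and Ppargc1b), none for adipose and 4 for liver with kidney (Ppara, Ppard, Esrra and Creb3l3), where 6.53%, 11.5% and 4.58% of all genes were. The tissues of a class did not always move together. Ppargc1a was at -0.98 in muscle and 0.07 in heart, and Ppard at -0.18 in liver and -1.92 in kidney. Esrra was at 0.86 in liver and -0.40 in kidney, while Ppara (0.92 and 0.59) and Creb3l3 (1.01 and 2.50) were higher in both. DESeq2 called 1, Ppargc1b in striated muscle, with a difference of -1.76 and an adjusted p of 0.00270, where it called 0.758%, 2.3% and 0.264% of all genes for the 3 classes. In the edgeR fit the difference for Ppargc1b was -1.76 (SE 0.34, adjusted p = 0.335), with muscle at -2.52 and heart at -1.20 against -0.50 to 0.23 in the other 6 tissues. For Ppara it was -1.08 (SE 0.31, adjusted p = 0.611), with muscle and heart both below the lowest other tissue, brown adipose at -0.27.

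The genes that these factors act on were followed as lists, chosen with earlier results of these data known and described by counts and medians. Of 30 known PPAR-alpha target genes, 25 of 28 at 1 CPM rose in liver and none fell, with a median log2 fold change of 1.08 against -0.13 for all genes at 1 CPM. In kidney 26 of 29 rose, with a median of 1.54, the highest of the 8 tissues. Some target genes rose where Ppara itself fell. In heart 16 of 29 rose (median 0.58) and in muscle 10 of 28 (median 0.23, with 18 of 28 above 0), and none fell in either. Counts were 12 of 28 in white adipose with 1 fall, 11 of 29 in brown adipose, 12 of 27 in spleen and 13 of 28 in lung, with medians of 0.42, 0.32, 0.40 and 0.48. Between the same spleen libraries all erythroid markers rose, with Hbb-bs at 2075 and 4947 CPM, and their part in the spleen count was not tested. Over the 8 tissues 125 of 226 pairs rose and 1 fell, against 7.93% and 9.94% of all pairs at 1 CPM, and without white adipose 113 of 198 rose and 0 fell. The median over all genes at 1 CPM lay between -0.14 in muscle and 0.07 in white adipose.

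**Figure D5:**
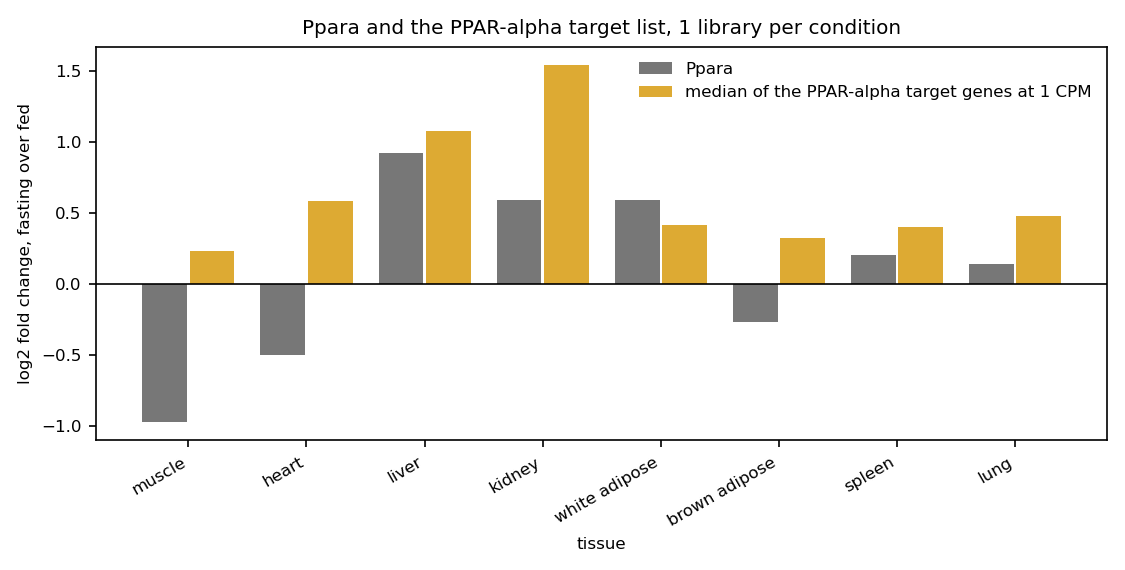
Log2 fold change of Ppara (grey bars) and median log2 fold change of the PPAR-alpha target genes at 1 CPM (yellow bars), fasting over fed, in 8 tissues with 1 library per condition. The target median is above 0 in all 8 tissues, including muscle, heart and brown adipose, where the grey bar is below 0.

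In the fit across tissues 11 of the 30 target genes were called higher and none lower, with a list median of 0.74 against -0.01 for all genes tested. Of the 23580 genes tested, 244 were called higher and 198 lower. Without white adipose 13 of 29 were called higher and none lower, where 1.18% and 0.788% of all genes were. Pdk4, which shuts off glucose oxidation by inhibiting pyruvate dehydrogenase, had a log2 fold change of 3.05 (SE 0.43) and was higher in 8 of 8 tissues, from 0.63 in liver to 4.24 in muscle. Acot1, a cytosolic acyl-CoA thioesterase, was at 2.85 (SE 0.28), and Angptl4, a secreted inhibitor of lipoprotein lipase, at 2.25 (SE 0.40), both higher in 8 of 8 tissues. In muscle, where Ppara went from 12.1 to 6.17 CPM, Pdk4 went from 162 to 3069 CPM, Acot1 from 0.457 to 5.66 CPM and Angptl4 from 4.69 to 27.2 CPM.

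Of 20 PPAR-gamma target genes of the adipocyte, 2 rose and 7 fell in white adipose and 3 rose and 6 fell in brown adipose, with medians of -0.20 and -0.17. Over all genes at 1 CPM, 19.8% rose and 9.23% fell in white and 8.68% rose and 12.2% fell in brown adipose, with medians of 0.07 and -0.03. In heart, where Pparg rose, 7 of 16 at 1 CPM rose and 1 fell, against 7.01% and 9.65%, with a median of 0.32 against -0.07. Pparg did not pass the rule in lung or kidney. In lung 9 of 20 rose and 1 fell, against 4.23% and 10.1%, with a median of 0.35 against -0.09. In kidney 8 of 20 rose and 2 fell, against 4.48% and 6.23%, with a median of 0.27 against -0.06. Pparg fell in liver, where 3 of 18 rose and 2 fell, against 7.34% and 15.8%, with a median of 0.27 against -0.13. The list shares 9 of its 20 genes with the adipocyte markers, of which 6 of 10 rose in lung, and 4 rose and 3 fell in kidney (summed level 825 and 628 CPM). In kidney 3 of 5 brown adipocyte markers rose too (1.96 and 8.88 CPM), with Cidea at 0.936 and 4.89 CPM, and the part of these markers in the list's counts was not tested. Across tissues 1 was called by edgeR, Pnpla2, the adipose triglyceride lipase, at 1.07 (SE 0.18) and higher in 8 of 8 tissues. At an unadjusted p under 0.05 there were 8 higher and 4 lower, and DESeq2 called 4. Of 25 target genes of PGC-1 and ERR, most of which encode mitochondrial proteins, none was called across tissues by edgeR; at an unadjusted p under 0.05 there were 1 higher and 3 lower, and DESeq2 called 2. Over all genes tested, 8.37% were higher and 10.3% lower at that unadjusted p and DESeq2 called 11.3%, and the counts of the lists that follow stand beside the same shares. Without white adipose edgeR called 2 of the 20 PPAR-gamma target genes higher and 1 of these 25 lower. In muscle, with Ppargc1a, Ppargc1b and Esrra all lower, 1 of 25 rose and 3 fell, against 7.8% and 16.4% of all genes at 1 CPM. The list median there was -0.23 against -0.14. In liver, with Ppargc1a and Esrra higher, 3 of 23 rose and 1 fell, against 7.34% and 15.8% of all genes at 1 CPM, with a median of 0.13 against -0.13, the only tissue where the median was above 0. In white adipose, where Ppargc1a was also higher, 3 of 23 rose and 5 fell, against 19.8% and 9.23%, with a median of -0.27 against 0.07. Atp5b, a subunit of ATP synthase, stayed between -0.25 and 0.17 in the 8 tissues.

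Of 12 CREB3L3 target genes, 7 rose and 1 fell in liver, with a median of 1.09, and 4 of 7 at 1 CPM rose and 1 fell in kidney, against 7.34% and 15.8% of all genes in liver and 4.48% and 6.23% in kidney. In white adipose, where Creb3l3 was under 1 CPM in both libraries, 3 of 8 at 1 CPM rose, against 19.8% of all genes, with a median of 0.69, and the hepatocyte markers there summed to 2522.5 and 3911 CPM with 2 of 10 rising. None of the 12 was called across tissues by edgeR, 5 were higher and 1 lower at an unadjusted p under 0.05, and DESeq2 called 2. Pck1, the enzyme that commits carbon to glucose synthesis, was at 1.14 (SE 0.26, adjusted p = 0.0509 in edgeR) and reached 2.16 in liver. Cidec, a lipid droplet protein, reached 4.30 in liver.

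Of 18 coregulators such as Ncor1, Crebbp and the steroid receptor coactivators, none was called across tissues by edgeR, 3 were higher at an unadjusted p under 0.05 and DESeq2 called 2; Ncor1, a corepressor, lay between -0.02 and 0.56. Of 30 other nuclear receptors none was called by edgeR, with 4 higher and 5 lower at an unadjusted p under 0.05 and 5 called by DESeq2. Nr3c1, the glucocorticoid receptor, was lower in all 8 tissues, from -0.75 in liver to -0.03 in spleen, with an adjusted p of 0.118. Hnf4a, a receptor of liver and kidney, rose in liver from 620.0 to 964 CPM; in white adipose it went from 2.53 to 58.3 CPM, in the libraries in which Lrp2 and Esrrg also differed. Of 16 regulators of Ppargc1a, 2 were called higher across tissues by edgeR, where 244 of the 23580 genes tested were. At an unadjusted p under 0.05 there were 5 higher and 1 lower, and DESeq2 called 3. The 2 were Foxo3, a factor held back by insulin, at 0.88 (SE 0.15) and Sik1, a kinase of the cyclic AMP response, at 0.54 (SE 0.09). Each was higher in 8 of 8 tissues. Foxo3 rose most in muscle, from 37.8 to 113 CPM, and was at 79.8 and 83.6 CPM in liver, the tissue where Ppargc1a rose most.

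Of the 8 genes of triglyceride synthesis none was called across tissues by edgeR, 3 were higher at an unadjusted p under 0.05 and DESeq2 called 1. Gpam, which starts glycerolipid synthesis, was at 0.27 (SE 0.11), and Dgat2, which ends it, ranged from -3.66 in white adipose to 0.35 in kidney. Among 10 genes of the CREB3 family and other membrane-bound factors, Srebf2, the regulator of cholesterol synthesis, was called lower by edgeR, at -0.54 (SE 0.08), and was lower in 8 of 8 tissues. At an unadjusted p under 0.05 there were 0 higher and 4 lower, and DESeq2 called 3. Creb3l1 was lower in all 8 as well, at -0.57 (SE 0.13, adjusted p = 0.0539).

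The genes whose levels followed each of the 10 most closely were named by Pearson correlation of log2(CPM + 1) over the 16 libraries, among 16934 genes that reached 5 CPM in a library. The points share tissues and pools, so these values are descriptions. Creb3l3 was closest to Nr1i3 (r = 0.996), a nuclear receptor of hepatocytes, Cyp2d37-ps (0.993) and Baat (0.992), a bile acid enzyme. Rxrg was closest to Ank (0.967), Lrrc39 (0.955) and Sec31b (0.917), and Pparg to Lipe (0.959), the hormone-sensitive lipase, Ormdl3 (0.951) and Fcor (0.947). Ppargc1a followed Grsf1 (0.961), Sdhc (0.954) and Cox7a2 (0.954), genes of mitochondrial RNA and of the respiratory chain. Esrra followed Smim20 (0.954), Narfl (0.952) and Mrpl37 (0.948), and Ppargc1b followed Coa5 (0.947), C330018D20Rik (0.935) and Mrps16 (0.931). Ppara was closest to Vwa8 (0.938), Phyh (0.936), a peroxisomal oxidation enzyme, and Acad8 (0.934), and Rxra to Egfr (0.932), Agt (0.906) and Gamt (0.897). Lpin1 was closest to Plin4 (0.905), Pla2g12a (0.900) and Akt2-ps (0.899). Ppard, the flattest gene, had the weakest best match, Myl9 (0.831), followed by Drosha and Golt1b (both 0.829).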

How the data were processed

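RNA was sequenced as strand-specific paired-end libraries of 100 base reads, 1 per tissue and condition. The authors ran FastQC 0.11.8 and fastp 0.23.2 on the reads, mapped them to GRCm38 by HISAT2 2.2.1.0 and deposited counts per gene from featureCounts (Subread 2.0) on GENCODE release M24, without normalization. The gene length beside them is another (other) value that the authors' counting program wrote. The strand setting of the counting, and whether reads or pairs were counted, are not given in the sources used here.

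Symbols came from an older GENCODE release of the same build, and 55144 of 55385 identifiers matched without their version. The 10 genes and all lists were chosen with earlier results of these data known. Library totals of 14245178 to 36069968 set the precision, and counting intervals (95%, exact Clopper-Pearson on the 2 counts) and floors cover counting error only. Within tissues, Fisher's exact test (two-sided) and the fold change (CPM fasting + 0.01)/(CPM fed + 0.01) followed the study's methods. Across tissues, edgeR 4.0.16 (R 4.3.3) fitted tissue and treatment with TMM factors, filterByExpr on that design and the quasi-likelihood test (7 residual degrees of freedom, adjusted p from Benjamini-Hochberg, coefficient of variation 0.2195). DESeq2 1.42.0 was an alternative. Class differences came from an edgeR interaction fit with 6 residual degrees of freedom. The rule within tissues and the fits across tissues were run on simulated data. Simulated libraries of a tissue differed by counting error only, apart from the genes set to change. Those of the fits were drawn independently, so neither run covers differences between pools of mice.

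Named genes are the 10, the 3 with the largest change among called genes of each list (or the 2 highest where none was called), the 3 most similar genes to each of the 10, and family members. Markers and genes named beside a tissue result were chosen after their values were seen. The software was matplotlib 3.10.9, numba 0.67.0, scipy 1.17.1, pandas 2.3.3 and numpy 2.4.6 under Python 3.11.15.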

Additional observations from a re-analysis of the deposited data

Results flagged for a closer look

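Ppard in kidney stood apart from the other 7 tissues, with a log2 fold change of -1.92 where the next lowest, spleen, was at -0.25. The gap was 0.76 of the whole range. The kidney counts were 770 (fed) and 234 (fasting), and the summed kidney tubule markers were 39271 and 35436 CPM.

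Esrra in liver stood apart upwards, with 0.86 where the next highest, spleen, was at -0.19, a gap of 0.645 of the range. The counts were 458 (fed) and 901 (fasting). The nominal chance rate is about 1 in 20 such sets, and 10 genes were examined. That rate assumes 8 independent values of equal spread, and these tissues share the same pools of mice.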

How the results depend on the processing

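Each result was recomputed under other settings, 1 at a time. Across tissues, edgeR called 442 genes in all. It called 677 without the filter on low counts, 0 without the tissue term, 156 without both adipose tissues and 81 to 473 with 1 tissue left out, and DESeq2 called 1832. A filter on the 2 treatment groups, added after seeing the data, gave 759. Of the 10 genes, 1 was called in the reported fit, 2 by DESeq2, 0 without the tissue term and 0 to 1 with 1 tissue left out, and 2 had an unadjusted p under 0.05 in the exact sign-flip permutation test, which is not comparable with the adjusted calls. Within tissues, a limit of 1 on the log2 fold change left 6 rises and 4 falls. edgeR's exact test left 5 and 4 at an assumed coefficient of variation between replicates of 0.2, and 0 and 1 at 0.4, where Ppargc1b in muscle was the pair left. Of the 31 pairs, 27 were still called with TMM factors and 29 with DESeq2 size factors, and each added 2. DESeq2 called 1 of the 10 genes for striated muscle. The highest tissue was kept for 6 of 10 genes with DESeq2 size factors and for 6 with TMM factors, the latter added after seeing the data. No called value changed sign under any setting run. The tissue term and the sign-flip test pair the 2 libraries of a tissue. Beyond that, no paired analysis was possible because each group has 1 library and the labels carry no replicate numbers. The cause of these shifts was not tested. Depth limits Creb3l3 outside liver, and Rxrg in kidney, lung and spleen.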
